A study of Mus musculus with 8 samples.

Results

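The untreated mouse bone marrow-derived dendritic cells (BMDC) were described here on their own, as the levels of messenger RNA in the culture. They are the 4 libraries of the 8 in the series whose treatment is given as none, and they are called replicates 1 to 4 after the number in their labels. The cells were of WT genotype, came from bone marrow progenitors of immunocompetent C57/bl6 mice and had been grown with GM-CSF for 10 days. The other 4 libraries, of BMDC sorted after uptake of dying human cells, were not used. No sort is described for the untreated cells, and the sources do not state that they were left unsorted. Each library is read here as a whole culture.

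GM-CSF is a growth factor that drives marrow progenitors to divide and to mature along the myeloid lineage. Cultures grown with it are known to hold dendritic cells, which take up antigen and present it to T cells on MHC class II, beside macrophages, granulocytes and precursors. A transcript in such a library cannot be assigned to one cell type, and fewer cells of a type cannot be told apart from less RNA per cell.

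Levels are given as CPM, the count of a gene divided by all counts of its library and scaled to a fixed total, and as TPM, which also divides by exon length. CPM compares 1 gene across libraries and TPM compares genes with each other. The libraries held 39596237, 42392727, 43857930 and 42097594 counts in replicates 1 to 4, so that 3 counts, taken as the floor, correspond to 0.0684 to 0.0758 CPM. Of 55487 genes in the table, 11982 reached 1 CPM in all 4 libraries and are called detected, which is 21.6% of the table. Of protein-coding genes alone, 10713 of 21974 were detected. That is the closer background for the marker lists below, whose members are mostly protein-coding. At or under the floor in every library were 34859 genes. The median level of a detected gene was 28.6 CPM and 15.4 TPM.

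The 4 libraries fell apart into replicates 1 and 2 and replicates 3 and 4, although the labels give them no different treatment, batch or date. Over detected genes, Spearman's rho was 0.991 between replicates 1 and 2 and 0.997 between 3 and 4, against 0.925 to 0.934 for the other pairs. At least 2-fold apart in CPM were 94 genes between replicates 1 and 2 and 19 genes between 3 and 4. The same count was 2131 to 2281 genes for a library of one pair against a library of the other. Replicates 3 and 4 still differed by more than counting noise, with a median chi-square of 1.64 per gene, so they were kept as separate libraries. This does not tell separate cultures from repeated preparations of the same RNA. The labels do not say whether the libraries came from separate cultures or animals. The mean ± SD below is over these 4 libraries, and an SD is wide wherever the pairs differ.

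The genes checked against the labels were those of blood cells and of sex. Ptprc, the common leukocyte antigen CD45, was at 474 ± 103 CPM (SD, n = 4). Xist, the X-inactivation transcript of female cells, had 0, 0, 2 and 0 counts in replicates 1 to 4. The Y-linked genes Ddx3y, at 87.8 to 96.8 CPM, and Eif2s3y, at 74.8 to 91.4 CPM, were detected in every library. The labels give no sex, and the study's methods name female mice as the source of marrow. The libraries do not match that, since the Y-linked genes were detected and Xist stayed at or under the floor. The reason was not tested.

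The most abundant genes included genes of the lysosome, of iron storage and of the matrix, beside mitochondrial genes such as mt-Co1, at 15248, 13084, 16556 and 18002 CPM. The 10 most abundant genes took 8.12, 8.64, 12.4 and 12.8% of all counts in replicates 1 to 4, and the 500 most abundant took 47.0 ± 4.02% (SD, n = 4). First by its mean was Lyz2, the lysozyme of macrophages and other myeloid cells (chr10:117277331-117282321, mm10), at 12947, 17886, 24851 and 26490 CPM. In replicate 1 mt-Co1 was higher than Lyz2, in CPM and in TPM. Lyz2 was lower in replicates 1 and 2 than in 3 and 4. It was also the highest protein-coding gene per length by its mean, at 36610 ± 10220 TPM (SD, n = 4).

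Psap, which encodes the precursor of the saposins of the lysosome, was at 12280, 15794, 19791 and 20541 CPM. Ccl6, a chemokine of myeloid cells, was at 6801, 8037, 12127 and 13604 CPM. Gpnmb, a glycoprotein of phagocytes rich in lysosomes, was at 4127, 5739, 13206 and 12244 CPM. All of them were higher in replicates 3 and 4 than in 1 and 2 with no overlap.

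The ferritin chains that store iron were also near the top. Fth1, the heavy chain, was at 5925, 5438, 12831 and 13002 CPM. Ftl1, the light chain, was at 3647, 3657, 6575 and 6495 CPM, and its count is uncertain, because 90.6% of the 50-base words of its longest transcript occur in other genes too.

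The macrophage metalloelastase Mmp12 was at 2639, 2230, 9320 and 9073 CPM. Spp1, which encodes the secreted matrix protein osteopontin, was at 778, 856, 8539 and 9268 CPM, the widest relative spread among the 25 most abundant genes. The lysosomal protease Ctsb was at 3835, 4971, 6678 and 6031 CPM, and Ctsd, another one, at 2157, 2848, 6185 and 6198 CPM. These also had their highest values in replicates 3 and 4.

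Not every abundant gene followed that order. Cd74, the invariant chain that escorts MHC class II, was at 10495, 7389, 4032 and 3627 CPM. Actb, the beta-actin of the cytoskeleton, was at 6129, 5836, 2345 and 2374 CPM, and Tmsb4x, which binds actin monomers, at 6921, 5844, 4953 and 5085 CPM. Eef1a1, an elongation factor of translation, varied little, at 5144, 4699, 5287 and 5630 CPM, though 60.6% of its words are shared with other genes. Of the 25 most abundant protein-coding genes by CPM, 17 had their highest 2 values in replicates 3 and 4 and 6 in replicates 1 and 2. Among all detected genes those shares were 26.9% and 55.0%, so the most abundant genes were weighted toward replicates 3 and 4.

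Scaling by TMM, which corrects for a few genes taking a large share of a library, moved the split over all detected genes to 41.4% for replicates 1 and 2 and 40.5% for replicates 3 and 4. It shifted the log2 level of every gene by -0.09, -0.11, 0.09 and 0.11 in replicates 1 to 4. Counts of genes by library order are therefore given below under both scalings.

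**Figure D1:**
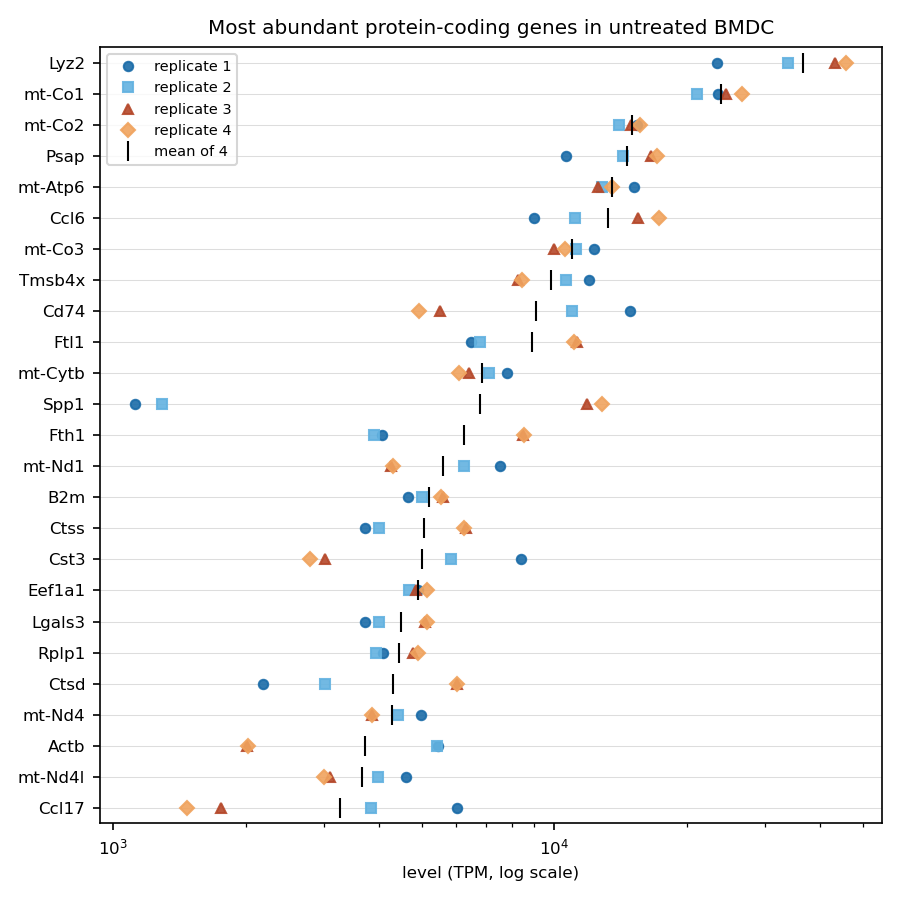
TPM (x axis, log scale) of the 25 protein-coding genes with the highest mean TPM (y axis), with 1 point per library and a bar at the mean of the 4 libraries. Spp1 runs from 1123 to 12832 TPM and Actb from 2006 to 5443 TPM, while Eef1a1 stays between 4692 and 5153 TPM.

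Ranked by TPM, 20 of the 25 most abundant protein-coding genes were the same as by CPM. Genes of the mitochondrial genome took 8 of the 25 places, led by mt-Co1, a subunit of cytochrome c oxidase, at 23926 ± 2295 TPM (SD, n = 4). Short mRNAs entered as well, among them B2m, the light chain of MHC class I, at 5192 ± 447 TPM, and Cst3, a protease inhibitor high in dendritic cells, at 5018 ± 2658 TPM (SD, n = 4). Mitochondrial genes together took 3.68 to 4.34% of counts, and genes of cytosolic ribosomal proteins 3.62 to 4.58%.

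Among the 25 most abundant genes of any class by CPM were 4 pseudogenes, which copy mitochondrial genes into chromosome 1. Gm28437 (chr1:24613189-24613971, mm10) is identical to mt-Co3 over all 783 bases compared. Its counts differed from those of mt-Co3 by 22, 191, 4 and 19 in replicates 1 to 4, out of 160403, 149164, 149499 and 152541. Differences that small are below the counting noise of independent reads, whose size is given by the square root of the summed counts, 546 to 566. The same reads therefore appear in both rows, and the handling of reads that match several places is not given in the sources used here.

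The first 60 bases of the coding strand show how alike such rows are, and mt-Nd3 with its copy Gm28438 shows the 1 base in 345 that differs, in capitals.
mt-Co3: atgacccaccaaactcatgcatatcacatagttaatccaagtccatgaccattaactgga
Gm28437: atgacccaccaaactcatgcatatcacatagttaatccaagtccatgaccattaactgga
mt-Nd3: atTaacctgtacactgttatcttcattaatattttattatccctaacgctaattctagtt
Gm28438: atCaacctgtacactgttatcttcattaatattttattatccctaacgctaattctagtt
Gm28661, the copy of mt-Co2, lay within 0.676% of the counts of its source in every library, by 722, 1101, 868 and 1279 counts, which is more than the square roots of 591, 569.8, 624 and 627. Gm28438 had 2.04 to 2.91% fewer counts than mt-Nd3, also more than that noise. Gm10925, the copy of mt-Atp6, had 30.5 to 36.3% more counts than its source, so its row was not a plain duplicate.

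The dendritic label was checked against marker genes, and the defining markers of a dendritic cell were present at unequal levels. Itgax, which encodes the integrin CD11c used to define these cells (chr7:128129547-128150657, mm10), was at 1033, 882, 1258 and 1340 CPM. Zbtb46, a transcription factor of conventional dendritic cells, was at 46.7, 26.1, 6.95 and 5.99 CPM. Flt3, the receptor that supports dendritic cells in the body, was at 4.90, 4.32, 3.31 and 3.75 CPM. Itgax was higher in replicates 3 and 4 with no overlap, its highest library standing 1.52 times above its lowest. Zbtb46 was higher in replicates 1 and 2 with no overlap, and Flt3 was low in all.

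Of the 10 core dendritic genes, 10 were detected, against 21.6% of all genes in the table and 10713 of 21974 protein-coding genes. Cst3 led them, followed by Itgax at 551 ± 82.0 TPM, Cd24a, a surface glycoprotein, at 404 ± 192 TPM, Spi1, the master regulator PU.1 of myeloid cells, at 360 ± 83.3 TPM, and Id2, an inhibitor of helix-loop-helix factors, at 353 ± 83.4 TPM (SD, n = 4). From Itgax down to Itgam, neighbours in that order were ranked alike in 2 of 4 libraries, so their order does not hold beyond the spread. Itgam, the integrin CD11b, was at 681, 565, 708 and 737 CPM, with 72.4% of its words shared with other genes. In CPM, 8 of the 10 were highest in replicates 1 and 2, and under TMM 6 of 10, against 55.0% and 41.4% of all detected genes by the tally given above.

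Genes of the type 1 conventional dendritic cell, which presents antigen from dead cells to CD8 T cells, spanned a wide range. Of 9, 7 were detected. Naaa, a lipid amidase, was at 466, 582, 439 and 482 CPM and made up 313 of the 427 TPM of the list. Xcr1, the chemokine receptor of this subset, was at 3.76, 2.81, 3.37 and 3.21 CPM. The receptor thus stood far below Naaa per length, at 1.74 ± 0.193 TPM (SD, n = 4). Clec9a, its receptor for dead cells, was at 3.21, 4.88, 16.3 and 13.2 CPM, higher in replicates 3 and 4. Cadm1 had 2, 3, 34 and 43 counts and Cd8a 2 to 8 counts. Irf8 and Batf3, transcription factors that this subset needs, were detected, with Irf8 at 110, 143, 179 and 185 CPM and Batf3 at 28.6, 27.8, 24.99 and 24.0 CPM.

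Genes of the type 2 subset were more abundant, with 7 of 9 detected and a summed level of 1744 ± 623 TPM, against 427 ± 55.6 TPM for type 1 (SD, n = 4). Without the highest gene of each list the sums were 728 ± 147 and 113 ± 5.496 TPM (SD, n = 4). Sirpa, an inhibitory receptor that binds CD47, was at 842, 955, 731 and 738 CPM. Irf4, the transcription factor of this subset, was at 214, 218, 102 and 101 CPM. Mgl2, a lectin for galactose, was at 1271, 1189, 554 and 549 CPM and led the list per length at 1016 ± 477 TPM (SD, n = 4). Clec10a and Clec4a2 stood lower, at 118 ± 18.2 and 98.9 ± 4.07 TPM (SD, n = 4). Other members of the list were low, with Clec4a4 at 14.0 ± 9.34 TPM and Epcam at 5.37 ± 4.32 TPM (SD, n = 4). Cd207 had 8, 0, 0 and 0 counts.

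Irf4 and Mgl2 were therefore about 2-fold higher in replicates 1 and 2. Cd209a, a lectin of monocyte-derived dendritic cells, went further, at 36.9, 13.6, 1.60 and 0.974 CPM. The Irf4 to Irf8 ratio in TPM was 2.81, 2.19, 0.819 and 0.789, so the order of these factors turned over between the pairs. In CPM, 6 of the 7 detected genes were highest in replicates 1 and 2, and under TMM 4 of 7, against 55.0% and 41.4% of all detected genes.

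Plasmacytoid dendritic cells were not visible by their defining marker. Siglech had 1, 4, 0 and 0 counts. Bst2, which interferon induces in many cell types, was at 180, 143, 147 and 146 CPM and made up most of the summed 447 ± 32.7 TPM of the list (SD, n = 4). Only 3 of 9 of its genes were detected. Cox6a2, a muscle-type subunit of cytochrome c oxidase on the same list, had 6, 13, 901 and 886 counts.

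**Figure D2:**
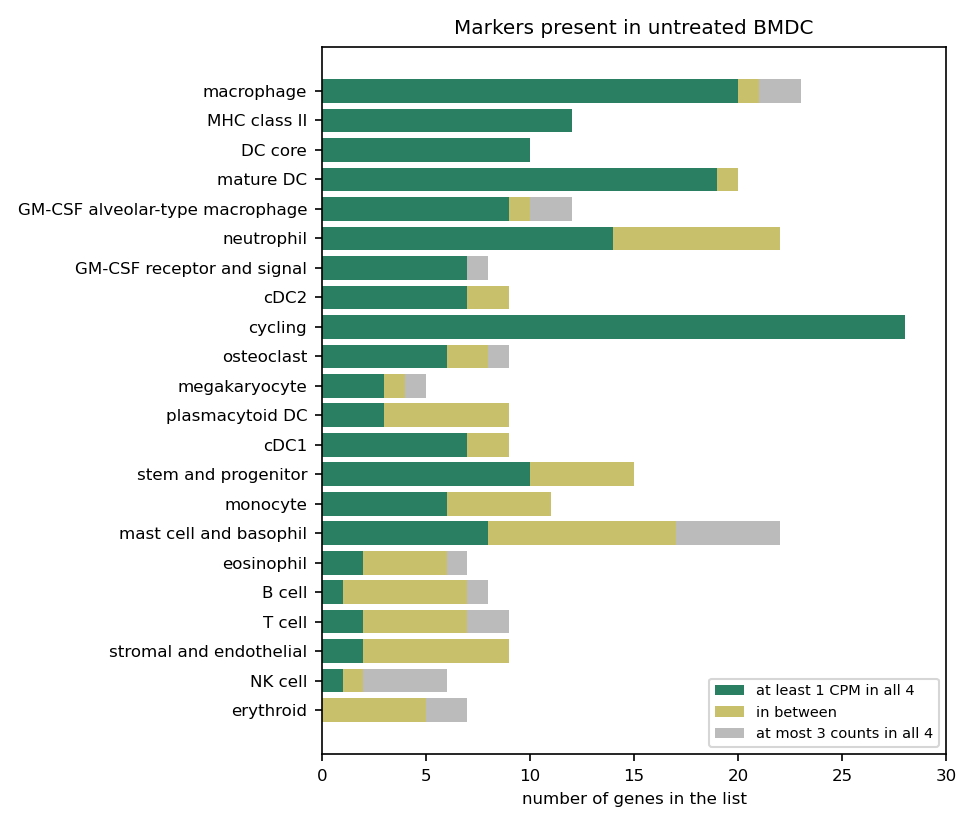
Number of genes of each list (x axis) that reached 1 CPM in all 4 libraries, stayed at or under 3 counts in all 4, or lay in between, for each list (y axis). All 28 cycling, 12 MHC class II and 10 core dendritic genes were detected, and 0 of 7 erythroid genes.

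Maturation genes, which dendritic cells switch on when they leave tissue for the lymph node, were present without stimulation. Of 20, 19 were detected. Ccr7, the homing receptor for lymph nodes (chr11:99144196-99155077, mm10), was at 108, 124, 149 and 159 CPM. Fscn1, which bundles actin, was at 146, 143, 108 and 112 CPM. Ccl22, a chemokine for regulatory T cells, was at 577, 558, 545 and 563 CPM, nearly level across all 4 libraries.

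Ccl17, a chemokine for the same receptor, was by contrast at 1297, 791, 394 and 332 CPM. It was the highest of the list per length, at 3266 ± 2105 TPM (SD, n = 4), and the 25th of all protein-coding genes. Ccl5, an inflammatory chemokine, was at 25.2, 38.9, 106 and 102 CPM, in the opposite order. The paired chemokines Ccl22 and Ccl17 thus did not vary together between libraries.

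Costimulatory genes were at moderate levels. Cd86, a ligand of CD28, was at 169, 114, 166 and 173 CPM, and Cd80, its other ligand, at 94.6, 64.7, 83.9 and 86.4 CPM, both lowest in replicate 2. Cd40, which receives T cell help, was at 23.1, 15.1, 8.19 and 7.06 CPM. Cd274, which encodes the inhibitory ligand PD-L1, was at 212, 219, 388 and 436 CPM, above Cd80 and Cd40 in TPM in its mean, at 203 ± 67.7 TPM (SD, n = 4).

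Il12b, a subunit of the cytokine IL-12, was low, at 2.37, 2.83, 3.31 and 2.90 CPM. Lamp3, a lysosomal protein of mature dendritic cells, had only 5 to 7 counts. By order in CPM, 7 of 19 maturation genes were highest in replicates 1 and 2 and 7 in 3 and 4. The shares over all detected genes were 55.0% and 26.9%. Under TMM the numbers were 6 and 12, against 41.4% and 40.5%. The gene counts were thus equal in CPM and leaned toward replicates 3 and 4 under TMM. The sum of the list ran the other way, at 7554, 5432, 3592 and 3367 TPM in replicates 1 to 4. Without Ccl17, its highest gene, it was 1552, 1601, 1834 and 1894 TPM.

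The antigen presentation genes were the list with the second-largest summed level after macrophage genes. MHC class II molecules are pairs of an alpha and a beta chain, assembled on the invariant chain and loaded with peptide in the endosome. The 12 genes summed to 29953, 22338, 15261 and 14342 TPM in replicates 1 to 4, and all 12 were detected. Their transcription depends on Ciita, the transactivator, which is recruited to a set of short promoter elements of which the last before the start, the Y box, holds an inverted CCAAT.

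The core of that element read in the gene's direction, ATTGG, was looked up in promoters from RefSeq (GRCm38.p6, the assembly also called mm10), each from 250 bases before to 50 after the start. Of the 12 genes, 9 had a promoter row, and those of Cd74, H2-Ab1 and Ciita are not shown. Promoters of a classical alpha and beta chain and of a chain each of H2-DM and H2-O, which regulate peptide loading, are printed as examples of each kind, and all 4 genes were highest in replicate 1. Capitals mark ATTGG, which is searched without any overlapping second motif.
H2-Aa (chr17:34287774-34288073, minus strand): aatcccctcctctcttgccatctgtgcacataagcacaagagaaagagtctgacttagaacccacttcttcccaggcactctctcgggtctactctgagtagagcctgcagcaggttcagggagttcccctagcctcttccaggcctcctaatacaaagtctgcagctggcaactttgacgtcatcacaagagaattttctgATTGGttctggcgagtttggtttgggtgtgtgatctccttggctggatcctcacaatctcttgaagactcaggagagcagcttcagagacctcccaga
H2-Eb1 (chr17:34305617-34305916, plus strand): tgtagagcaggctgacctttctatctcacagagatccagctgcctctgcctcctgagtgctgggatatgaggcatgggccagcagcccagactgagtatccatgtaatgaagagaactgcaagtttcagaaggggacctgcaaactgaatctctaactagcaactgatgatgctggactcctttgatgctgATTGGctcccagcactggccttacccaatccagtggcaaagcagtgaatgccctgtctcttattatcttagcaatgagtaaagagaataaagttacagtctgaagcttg
H2-DMb1 (chr17:34152941-34153240, plus strand): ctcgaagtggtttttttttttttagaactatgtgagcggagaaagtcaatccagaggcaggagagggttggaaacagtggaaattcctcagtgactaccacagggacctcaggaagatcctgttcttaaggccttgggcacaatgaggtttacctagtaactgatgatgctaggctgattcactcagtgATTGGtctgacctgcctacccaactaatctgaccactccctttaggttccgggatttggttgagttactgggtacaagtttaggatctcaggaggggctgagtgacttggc
H2-Ob (chr17:34238655-34238954, plus strand): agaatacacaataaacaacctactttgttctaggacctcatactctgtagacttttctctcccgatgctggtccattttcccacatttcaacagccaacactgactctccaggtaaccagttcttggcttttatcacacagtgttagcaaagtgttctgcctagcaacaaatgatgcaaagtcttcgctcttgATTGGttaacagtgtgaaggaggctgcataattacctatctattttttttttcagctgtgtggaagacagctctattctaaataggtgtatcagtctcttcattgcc

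The motif began 48, 59, 61 and 57 bases before the start in H2-Aa, H2-Eb1, H2-DMb1 and H2-Ob. On the gene's strand it was found in 8 of the 9 genes, and in 7 of them it lay wholly within 100 to 36 bases before the start. Ctss had none. Over all 32851 promoters of the table, 37.4% held it on either strand, 22.1% on the gene's strand and 7.71% in that window. A match describes letters and not binding.

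The classical chains were high and shared an order. H2-Aa, an alpha chain, was at 3231, 2129, 1133 and 1055 CPM. H2-Ab1, its beta chain, was at 4262, 2550, 1150 and 1043 CPM, and H2-Eb1, another beta chain, at 3083, 1774, 961 and 868 CPM. Each was highest in replicate 1, lower in replicate 2 and lowest in replicates 3 and 4, as Cd74 was.

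Cd74 exceeded H2-Ab1 by 3.77, 4.43, 5.36 and 5.32 times in TPM in replicates 1 to 4. H2-DMa, which catalyses peptide exchange, was at 534, 396, 237 and 224 CPM. Its beta partners H2-DMb1, at 360, 285, 169 and 164 CPM, and H2-DMb2, at 425, 291, 135 and 139 CPM, share 27.2 and 30.9% of their words with other genes. The H2-O genes that restrain H2-DM were lower per length, at 27.4 ± 9.82 TPM for H2-Oa and 16.9 ± 5.89 TPM for H2-Ob, against 240 ± 106 TPM for H2-DMa (SD, n = 4). H2-Oa was at 24.6, 14.8, 12.9 and 12.8 CPM and H2-Ob at 57.9, 32.4, 29.7 and 33.9 CPM, both highest in replicate 1.

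Ciita (chr16:10480059-10528418, mm10) was at 358, 271, 33.3 and 31.6 CPM, a wider range than that of any chain. Its highest library stood 11.3 times above its lowest. Ctss, the protease that trims the invariant chain, ran the other way, at 2124, 2189, 3737 and 3712 CPM. Of the 12 genes, 10 were highest in replicates 1 and 2 in CPM and 9 under TMM, against 55.0% and 41.4% of all detected genes.

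**Figure D3:**
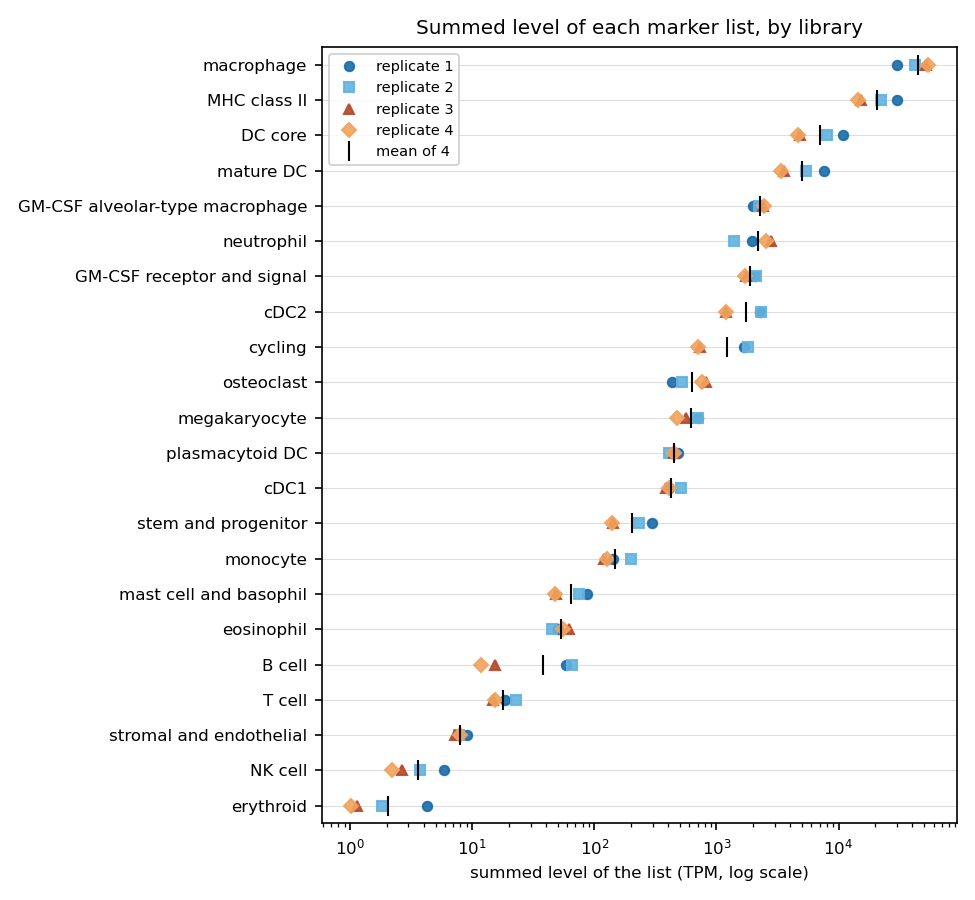
Summed TPM (x axis, log scale) of the genes of each list (y axis), with 1 point per library and a bar at the mean of the 4 libraries. The macrophage list runs from 30171 to 54211 TPM, the MHC class II list from 14342 to 29953 TPM, and the erythroid list from 1.01 to 4.27 TPM.

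Macrophage genes formed the largest sum, 44793 ± 10983 TPM (SD, n = 4), most of it Lyz2 and Gpnmb, which other myeloid cells express as well. Of 23 genes, 20 were detected. Csf1r, the receptor for the growth factor M-CSF, was at 1083, 1129, 728 and 680 CPM. Adgre1, which encodes the antigen F4/80, was at 438, 405, 297 and 319 CPM. Both were lower in replicates 3 and 4, by less than 2-fold.

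Genes for clearing dead cells were among them. Mertk, a receptor for coated dead cells, was at 88.7, 120, 76.4 and 78.3 CPM, and the related Axl at 609, 712, 504 and 481 CPM. The complement C1q chains stood at 298, 340, 184 and 141 CPM for C1qa, 659, 830, 340 and 274 CPM for C1qb and 365, 427, 247 and 195 CPM for C1qc. C1qb exceeded C1qa by 1.76 to 2.34 times in TPM.

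The endosomal marker Cd68 was at 327, 447, 572 and 628 CPM, and the endotoxin co-receptor Cd14 at 72.2, 67.1, 272 and 287 CPM. Trem2, a receptor for lipids, was at 144, 173, 420 and 423 CPM. These were higher in replicates 3 and 4, as Lyz2 and Gpnmb were. Cd14 stood about 4-fold apart between the pairs.

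Receptors and factors of resident macrophages ran the other way. Maf, a transcription factor, was at 68.7, 83.9, 10.9 and 7.20 CPM, and Marco, a scavenger receptor, at 53.6, 62.8, 9.74 and 6.75 CPM. Mrc1, the mannose receptor, was at 317, 441, 159 and 139 CPM, and Fcgr1, the high-affinity IgG receptor, at 185, 161, 67.1 and 57.3 CPM.

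In all, 14 of 20 detected macrophage genes were highest in replicates 1 and 2 and 5 in 3 and 4, and 13 and 5 under TMM. Over all detected genes those shares were 55.0% and 26.9% in CPM and 41.4% and 40.5% under TMM. The CPM counts lay nearer to those shares than the TMM counts did. The sum of the list, set by Lyz2, was highest in replicates 3 and 4. Cd163, a scavenger receptor for haemoglobin, had 156, 328, 46 and 30 counts. Vsig4 and Timd4, which mark some tissue-resident macrophages, had 0 counts in every library, below the floor of 3.

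Between the macrophage gene Csf1r and the dendritic gene Itgax, no fixed balance held across libraries. The Csf1r to Itgax ratio in TPM was 0.872, 1.07, 0.481 and 0.422, so that Csf1r exceeded Itgax in replicate 2 alone.

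GM-CSF also programs alveolar macrophages of the lung, and 9 of 12 genes of that type were detected. Pparg, the lipid-sensing receptor that GM-CSF induces there, was at 22.3, 22.6, 19.3 and 17.6 CPM. Siglecf, a sialic acid receptor, was at 27.5, 36.6, 34.7 and 33.9 CPM, and Car4, a carbonic anhydrase, at 22.6, 39.8, 89.0 and 142 CPM. The lipid chaperone Fabp5 was the most abundant at 702 ± 94.8 TPM, ahead of Itgax and of Chil3, a chitinase-like protein, at 543 ± 175 TPM (SD, n = 4). Krt79 and Cidec stayed at or under 3 counts.

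Monocyte genes were low, with 6 of 11 detected and a sum of 147 ± 36.7 TPM (SD, n = 4). Ly6c2, an antigen of inflammatory monocytes, was at 36.7, 28.9, 52.3 and 62.5 CPM. Ccr2, the receptor that brings monocytes out of the marrow, was at 144, 264, 101 and 95.7 CPM. F13a1, a clotting factor made by monocytes, was at 24.6, 63.4, 44.1 and 58.7 CPM. Cx3cr1 and Plac8 did not reach 1 CPM in all libraries. Ms4a4c had 602, 327, 29 and 19 counts.

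Osteoclast genes were present in part, with 6 of 9 detected. Acp5, the tartrate-resistant phosphatase, was at 32.4, 52.4, 106 and 82.0 CPM, and Ctsk, the protease of bone, at 16.8, 14.6, 58.0 and 48.5 CPM. Atp6v0d2, a proton pump subunit, was at 309, 385, 644 and 622 CPM. These were higher in replicates 3 and 4. That order held for 3 of the 6, or 4 under TMM, against 26.9% and 40.5% of all detected genes. Nfatc1, the transcription factor of osteoclasts, ran the other way, at 76.9, 79.0, 28.6 and 32.5 CPM. Calcr, the calcitonin receptor of mature osteoclasts, had 0 counts.

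Neutrophil genes split the libraries in another way, with replicate 1 beside replicate 3. S100a8, a subunit of the calcium-binding calprotectin (chr3:90668978-90670035, mm10), was at 80.2, 20.03, 61.7 and 23.7 CPM. S100a9, its partner (chr3:90692632-90695721, mm10), was at 85.8, 15.7, 83.9 and 19.2 CPM. Both were high in replicates 1 and 3 and low in 2 and 4.

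Some granule genes did the same. Ltf, lactoferrin, was at 58.5, 6.06, 22.6 and 2.30 CPM. Ngp, a neutrophil granule protein, was at 48.1, 6.35, 40.4 and 6.91 CPM, and Camp, the cathelicidin, at 11.1, 1.25, 8.14 and 1.45 CPM. Ly6g, the surface marker of mouse neutrophils, had 68, 15, 81 and 30 counts. Of 14 detected neutrophil genes out of 22, 8 had their highest 2 values in replicates 1 and 3, and 7 under TMM, against 4.68% of all detected genes.

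Other genes on the neutrophil list did not share that order. Mmp8, a collagenase, was at 420, 629, 978 and 1046 CPM and was the highest of the list at 742 ± 265 TPM, ahead of Wfdc21 at 608 ± 366 TPM (SD, n = 4). Lcn2, a granule protein that binds siderophores, was at 22.8, 8.16, 53.7 and 44.8 CPM. Like Mmp8, it was highest in replicates 3 and 4. Csf3r, the receptor for G-CSF, was at 11.3, 8.49, 9.17 and 9.88 CPM. Il1r2, a decoy receptor for interleukin-1, was at 204, 137, 208 and 197 CPM.

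Granule enzymes of early granulocyte precursors were low. Prtn3, proteinase 3, was detected, at 2.35, 1.46, 3.74 and 2.54 CPM. Mpo, myeloperoxidase, had 18, 5, 62 and 34 counts. Elane, neutrophil elastase, had 20, 12, 84 and 66 counts, and Ctsg, cathepsin G, 14, 6, 43 and 18 counts. These were lowest in replicate 2.

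**Figure D4:**
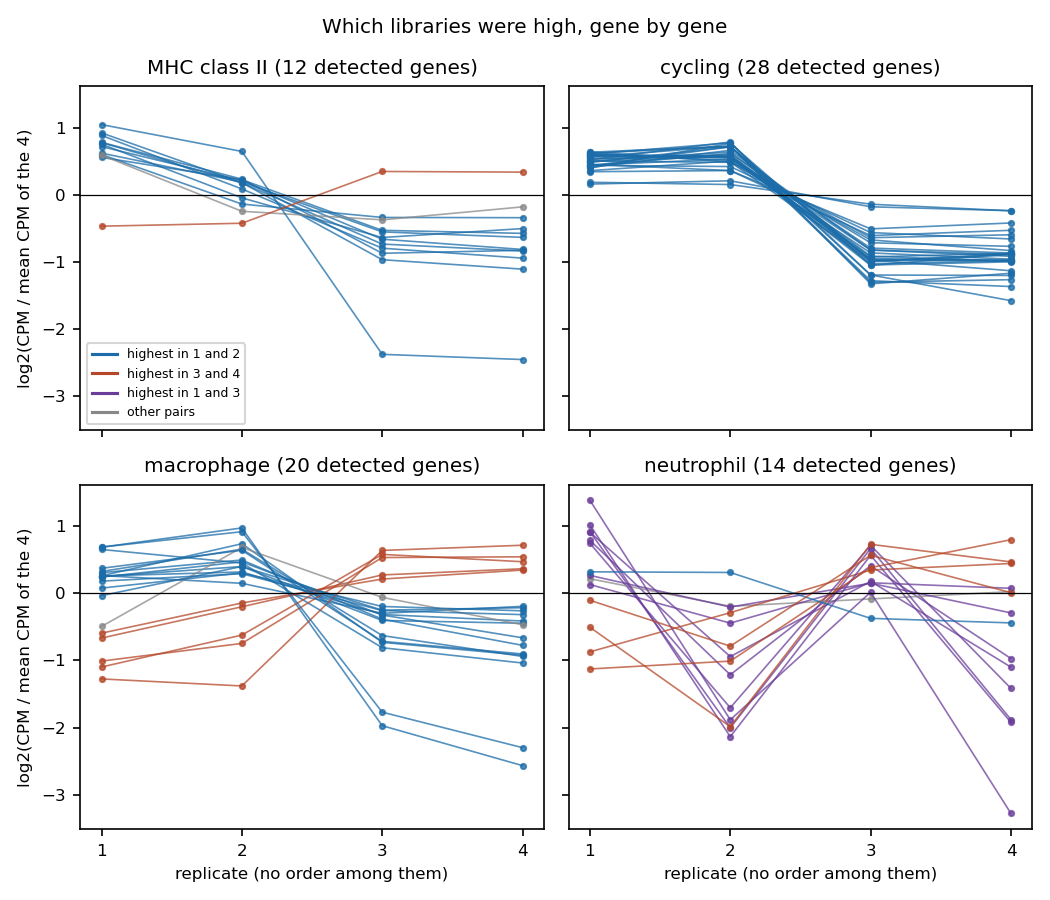
Log2 of CPM over the mean CPM of the 4 libraries (y axis) in each library (x axis) for the detected genes of 4 lists, with 1 line per gene coloured by the 2 libraries where it was highest. All 28 cycling genes lie above the mean in replicates 1 and 2, and 8 of 14 neutrophil genes are highest in replicates 1 and 3.

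Mast cells, which also grow from marrow, were scarcely visible. Of 22 mast cell and basophil genes 8 were detected, and the list summed to 64.2 ± 19.6 TPM (SD, n = 4). Kit, the receptor for stem cell factor, was at 25.9, 21.8, 21.7 and 18.8 CPM. Cpa3, a granule carboxypeptidase, was at 5.20, 2.38, 2.62 and 2.45 CPM. Fcer1a, the alpha chain of the IgE receptor, had 2, 0, 7 and 11 counts, and Ms4a2, its beta chain, 5, 1, 7 and 6 counts.

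Granule proteases of mast cells and basophils had few counts. Mcpt2 and Mcpt4 had 0 counts in all 4 libraries, Tpsab1 at most 2 and Cma1 at most 6, while the tryptase Tpsb2 had 14, 6, 21 and 32. Mcpt8 of basophils had 24, 7, 33 and 12 counts and Prss34 21, 5, 71 and 63. The receptor Mrgprb2 had 0 counts. Genes of the list that other myeloid cells use were detected, with Mitf, a factor of lysosome genes, at 29.8, 45.2, 48.3 and 52.0 CPM and Gata2, a progenitor factor, at 39.2, 26.4, 8.32 and 9.05 CPM. Il1rl1, the receptor for interleukin-33, was at 58.5, 34.0, 2.58 and 1.43 CPM. Il1rl1 was thus the most uneven gene among the detected ones on this list.

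Eosinophil genes were also low, with 2 of 7 detected. Prg2, the major basic protein, had 179, 22, 240 and 163 counts, Epx, the eosinophil peroxidase, 22, 1, 48 and 20 counts, and Prg3 0 to 2 counts. Both Prg2 and Epx were lowest in replicate 2.

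Cycling genes were detected without exception, 28 of 28, and summed to 1669, 1812, 731 and 705 TPM. Mki67, which encodes the proliferation antigen Ki-67 (chr7:135689784-135716361, mm10), was at 312, 380, 118 and 117 CPM. Top2a, which untangles replicated DNA, was at 329, 368, 97.1 and 96.7 CPM. Ccnb1, the cyclin that starts mitosis, was at 74.0, 84.1, 31.6 and 30.1 CPM, with 42.1% of its words shared with other genes. Each had its highest 2 values in replicates 1 and 2.

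So did every other cycling gene, 28 of 28 in CPM and under TMM, against 55.0% and 41.4% of all detected genes. Genes of DNA replication followed, with Mcm5, a subunit of the replicative helicase, at 104, 123, 38.1 and 34.1 CPM and Rrm2, which makes deoxynucleotides, at 132, 129, 42.7 and 43.9 CPM. Pcna, the sliding clamp of DNA polymerase, differed least, at 283, 276, 225 and 210 CPM, and was the highest of the list at 245 ± 44.1 TPM (SD, n = 4). E2f1, the factor that drives entry into S phase, was at 40.9, 42.3, 32.4 and 31.1 CPM.

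Of 15 stem and progenitor genes 10 were detected, and 8 of those were highest in replicates 1 and 2, or 6 under TMM, against 55.0% and 41.4% of all detected genes. Cd34, an antigen of progenitors, was at 67.3, 37.1, 11.6 and 15.2 CPM, and Myb, a factor of immature cells, had 198, 169, 31 and 20 counts. Cebpa, which myeloid cells keep after the progenitor stage, was at 75.9, 83.1, 91.3 and 88.9 CPM.

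The GM-CSF receptor and its signalling genes had a smaller median spread than detected genes in general, with exceptions. Csf2ra, the alpha chain, was at 401, 387, 503 and 490 CPM. Csf2rb, the common beta chain, was at 2392, 2423, 1998 and 2017 CPM, and Csf2rb2, its close relative that serves interleukin-3, at 1130, 1117, 922 and 898 CPM. Csf2rb exceeded Csf2rb2 by 1.38 to 1.46 times in TPM, with 18.4 and 19.5% of their words shared with other genes.

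Downstream of the receptor, the kinase Jak2 was at 508, 415, 390 and 369 CPM. Stat5a was at 78.1, 82.1, 40.6 and 42.5 CPM and Stat5b at 66.4, 75.9, 44.6 and 49.5 CPM, the factors that Jak2 activates, with coefficients of variation of 0.367 and 0.247. Cish, a feedback target of Stat5, was at 209, 190, 150 and 146 CPM. Of 8 genes 7 were detected, and Csf2, the cytokine that had been added to the medium, had 0, 0, 2 and 2 counts of its own transcript. In CPM, 6 of the 7 were highest in replicates 1 and 2, and under TMM 5 of 7, against 55.0% and 41.4% of all detected genes.

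Most genes of cells from outside the myeloid lineage were not detected. Of 7 erythroid genes 0 were detected, of 9 T cell genes 2, of 8 B cell genes 1, of 6 NK cell genes 1 and of 9 stromal and endothelial genes 2. The T cell receptor gene Trac had 1, 1, 0 and 0 counts and Cd3e 1, 4, 1 and 3. The B cell gene Ms4a1 had 2, 4, 1 and 1 counts, while Ighm, the heavy chain of IgM, was at 45.5, 48.6, 10.9 and 8.39 CPM.

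Haemoglobin beta Hbb-bt had 31, 7, 6 and 7 counts, with 58.3% of its words shared. Collagen Col1a1 had 25, 84, 13 and 11 counts and Col1a2 35, 84, 15 and 9. In the megakaryocyte list, Pf4, a chemokine that some macrophages also make, was at 192, 189, 167 and 140 CPM, while Gp1bb, a platelet receptor, had 0 counts, with 92.8% of its words shared with other genes.

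Of the transcription factors on all lists, Spi1 and Id2 had the highest levels per length. Among those at lower levels were Irf4 at 77.4 ± 34.8 TPM, Cebpa at 75.8 ± 4.97 TPM, Irf8 at 51.4 ± 10.3 TPM and Relb, a factor of dendritic maturation, at 47.5 ± 3.62 TPM (SD, n = 4). Ciita stood at 43.9 ± 42.4 TPM, Batf3 at 39.03 ± 4.62 TPM and E2f1 at 27.6 ± 5.39 TPM (SD, n = 4). The SD of Ciita was nearly as large as its mean.

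Across all detected genes the median coefficient of variation over the 4 libraries was 0.197, and 1307 genes, 10.9%, exceeded 0.5. Of the 28 cycling genes 20 did so, with a median of 0.555, of the 12 MHC class II genes 6, with a median of 0.491, and of the 14 detected neutrophil genes 8, with a median of 0.631. Of the 7 detected GM-CSF receptor and signalling genes 0 did so, with a median of 0.145.

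Among the 3849 protein-coding genes at 50 CPM or more on average, the most variable was Hr, a nuclear co-repressor, at 152, 64.1, 6.68 and 5.27 CPM. Egln3, an oxygen-sensing hydroxylase, was at 3.13, 4.22, 94.2 and 134 CPM. Hilpda, a lipid droplet protein, was at 8.51, 7.78, 229 and 208 CPM. Hr was high in replicates 1 and 2, and the other two in 3 and 4.

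Arg1, an arginase of alternatively activated macrophages, was at 16.6, 77.4, 511 and 504 CPM. Rgs1, a regulator of chemokine signals, was at 19.6, 26.0, 292 and 248 CPM, and Mmp19, a matrix protease, at 18.6, 23.2, 175 and 214.8 CPM. All of these were high in replicates 3 and 4. The lectin Cd209c was at 135, 79.7, 7.23 and 6.22 CPM and Cldn1, a tight junction protein, at 112, 63.7, 15.3 and 11.1 CPM, in the order of Hr. Spp1 and Ciita, given above, were the other members of the 10.

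**Figure D5:**
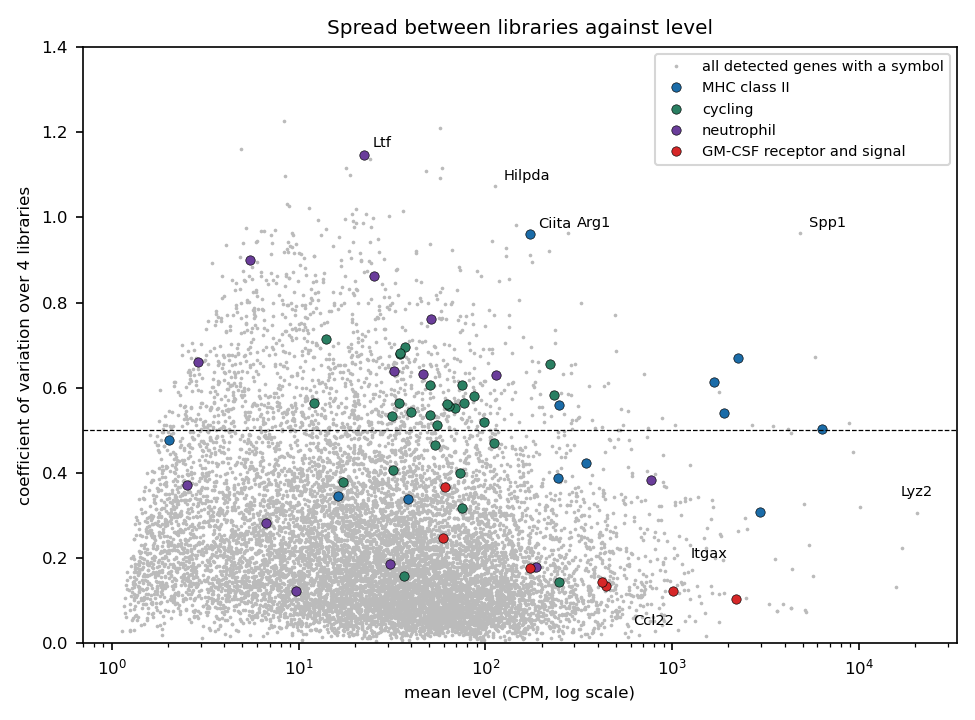
Coefficient of variation over the 4 libraries (y axis) against mean CPM (x axis, log scale) for all detected genes with a symbol (grey), with 4 lists coloured and a dashed line at 0.5. Of the MHC class II genes 6 of 12 lie above the line, as do 20 of 28 cycling genes and 0 of 7 GM-CSF receptor and signalling genes.

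At the other end, the 10 steadiest genes at that level had a coefficient of variation of 0.00756 to 0.0118. Tmed5, which sorts cargo between the endoplasmic reticulum and the Golgi, was at 126, 127, 128 and 128 CPM. Acadl, an enzyme of fatty acid oxidation, was at 98.1, 97.3, 99.0 and 97.5 CPM. Tmx1, Psmd6, Tnks, Csnk1a1, Morf4l2, Cct4 and 2510039O18Rik were also among them. They were chosen for their spread in CPM, so that spread is a description. Under TMM each of the 10 had its highest 2 values in replicates 3 and 4, so the near-zero spread belongs to the scaling by CPM.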

How the data were processed

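RNA of 4 untreated BMDC libraries was enriched with oligo(dT) beads. Per the labels and the paper's methods, the authors mapped reads with HISAT2 and counted them with featureCounts, and deposited raw counts per mouse gene. CASAVA and DESeq2 are also named, and the build is mm10. Annotation version, strand setting and handling of reads that match several places are not given in the sources used here. The deposited counts were used unchanged, with 0 columns left unmapped.

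CPM used all counts of a library. TPM used the union of exons in GENCODE annotation of the same assembly, and 55227 of 55487 gene IDs matched a symbol, the rest holding under 0.01% of counts. Scripts ran in Python 3.11.15 with pandas 2.3.3 and numpy 2.4.6, and in R 4.3.3 with edgeR 4.0.16 (TMM, dispersion) and DESeq2 1.42.0 (size factors), and were tested on simulated data. A gene with at least 1 CPM in all 4 libraries is called detected. There is 1 group, so no test was made. The floor of 3 counts covers counting error only, since reads carry no molecular identifiers.

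Genes named are the 25 most abundant by CPM and TPM, members of 23 lists (267 genes), the 10 most and 10 least variable at 50 CPM or more, the 10 highest transcription factors of the lists, and near-identical copies, for which words of 50 bases shared between genes were counted. The members and lists were chosen with earlier results of these data known. Alternatives were other scalings, gene lengths, minimums and each library left out. A few genes of these sets are not reported here, although the sums and counts of the lists include them.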

Additional observations from a re-analysis of the deposited data

Results flagged for a closer look

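Genes with a mean of at least 1 CPM that are reported here were checked, from the lists and the most abundant, most variable and least variable genes. Of these 234, 7 had 1 library far from the other 3, and no explanation was tested. About 11.7 would be so by chance among independent libraries of 1 distribution. The pairs of alike libraries described above depart from that setting, so this number is no measure of chance here. The number given is the gap between that library and its nearest neighbour as a share of the whole range of CPM. Replicate 1 stood highest for Bst2 (0.895), Cpa3 (0.915), H2-Ob (0.849) and H2-Oa (0.836). Replicate 2 stood highest for Ear2 (0.865), an eosinophil-type ribonuclease whose count is uncertain because 41.5% of its words are shared. Replicate 2 stood lowest for Cd86 (0.89) and Il1r2 (0.837).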

How the results depend on the processing

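Mean CPM of 236 genes with a mean of at least 1 CPM moved by less than 1 SD under TMM and under DESeq2 size factors. These were list genes together with the most abundant, most variable and least variable genes. Both scalings moved the pairs of libraries in opposite directions around the same average depth, so a mean over the libraries could hardly move. This result was therefore nearly fixed in advance and does not show how single libraries depend on scaling. When mitochondrial genes were left out of the total, 12 of the 236 moved by more than 1 SD. Detected genes numbered 13018 at 0.5 CPM, 9550 at 5 CPM and 12053 to 12098 with a library left out. Gene length mattered for some sums. With the longest transcript as length the type 1 dendritic list came to 548 TPM, and with TPM over protein-coding genes only it came to 541 TPM, against 427 TPM. Restricting TPM to protein-coding genes shrinks the denominator and so raises every list by construction. By it the macrophage list came to 56863 TPM against 44793 TPM, and the monocyte list to 186 TPM against 147 TPM. Why the longest transcript moved the type 1 list was not tested. Genes with a coefficient of variation above 0.5 numbered 1097 under TMM, and 1083 to 1516 with a library left out. Leaving out pseudogene rows, chosen after the data were seen, left 11233 detected genes. No paired analysis was possible because 1 group is described and no groups are compared. Depth limits statements on genes at a few counts.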

Other observations

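Hypoxia response and sterol synthesis genes were put in lists after the values of Egln3 and Hilpda had been seen, so their order is a description. Of 14 hypoxia response genes 13 were detected. They summed to 1521, 1527, 3047 and 3184 TPM in replicates 1 to 4. Vegfa, the vascular growth factor, was at 25.1, 48.6, 305 and 314 CPM, and Bnip3, which drives removal of mitochondria, at 16.3, 17.0, 82.6 and 103 CPM. Pgk1, an enzyme of glycolysis, was at 541, 524, 1044 and 1133 CPM. Bnip3 and Pgk1 share 62.4 and 68.0% of their words with other genes, so their counts are uncertain. Car9, a carbonic anhydrase on many such lists, did not share this order, at 8.08, 6.75, 6.34 and 6.53 CPM, and Adm had 4, 1, 15 and 13 counts.

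Sterol synthesis genes ran the other way. All 11 were detected and summed to 579, 731, 268 and 247 TPM. In CPM, 11 of 11 were highest in replicates 1 and 2, against 55.0% of all detected genes. Under TMM, Mvd was highest in replicates 2 and 3, and the share over all detected genes was 41.4%. Hmgcs1, an early enzyme of the pathway, was at 140, 151, 27.0 and 26.7 CPM, and Idi1, an isomerase of the pathway, at 159, 173, 26.7 and 21.9 CPM.

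Lyz1, the lysozyme gene of the gut, had 61, 32, 100 and 128 counts beside the far larger counts of Lyz2, with 16.1% of its words shared with other genes.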
